A study of Homo sapiens with 4 samples.

Results

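The peaks called only in replicate 3 were the 8900 regions of the third MIR205HG ChIRP library whose interval, on chromosomes 1 to 22 and X, shared no base with any peak of the other 2 replicates. They were 52.2% (95% exact interval 51.4 to 52.9) of the 17054 replicate 3 peaks on these chromosomes, and all 3 lists together held 28542 peaks. Another 8133 replicate 3 peaks overlapped a replicate 2 peak and served as the comparison, and 21 overlapped a replicate 1 peak alone. Members were chosen on the peak calls, so their fold enrichment, p-value, width, read number and distance to the other lists are given as a description with no test. Only their place relative to genes and their sequence were tested.

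The study asked where the long noncoding RNA MIR205HG, also named LEADR, sits on chromatin in RWPE-1 cells, an immortalized line of normal prostate epithelium. ChIRP (chromatin isolation by RNA purification) was carried out in 3 replicates with a MIR205HG probe pool and in 1 library with a lacZ probe pool, lacZ being a bacterial gene that human cells lack. All 4 libraries came from untreated, formaldehyde-fixed cells of this line, so no condition was compared. One lacZ library served as the background of all 3 peak lists, which limits the lists as independent replicates.

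MIR205HG is the host gene of the microRNA miR-205, which marks basal epithelial cells of the prostate. A noncoding RNA can be held on chromatin by base pairing, by a triple helix in which it lies along a purine-rich DNA strand, or by proteins. The first exons of MIR205HG carry an Alu, a short interspersed repeat that is found throughout the human genome. In ChIRP, tiled biotinylated oligonucleotides complementary to the RNA retrieve it with the DNA fixed to it. LacZ probes serve as a mock control for non-specific retrieval, but their sequence differs, so they give no measure of DNA that pairs with the MIR205HG probes themselves.

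The description turned on the Alu of MIR205HG and on short stretches of its transcript. The Alu takes up 212 of the 1007 bases of transcript ENST00000429156.6_2, from its first to its second exon, and its copies mark a class of peaks that members held less often.

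Outside the Alu, 6 stretches of the transcript recurred exactly in the 300 bp windows around the members' summits. They were taken as runs of 12-base words, on either strand, that stood in at least 20 member windows and at least 10 times as often as in windows placed every 100000 bp along the genome. This rule was set after the values had been seen, so no test was made. They are shown because 88 (29.3%) of the 300 members of highest fold enrichment held at least 1 of them.
Bases 15 to 35: ctgagtccctcttgctcaccc
Bases 41 to 54: ttggaaaaaccagt
Bases 100 to 113: tcaattctcaacca
Bases 435 to 454: ccccacctttcctcaggagt
Bases 945 to 959: gctatgaaaatttgc
Bases 962 to 974: tttctgtaacttg

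For each of the 4 most frequent stretches, the window part of the member with the highest fold enrichment is shown (hg19, plus strand, outside exons and proximal regions), with the bases identical to the transcript in capitals. The first lies in an intron of MIR100HG, the noncoding host of miR-100, and matches bases 18 to 29. The second lies in PTPRN2, a receptor-type phosphatase of secretory vesicles, and carries bases 440 to 451 on the minus strand. The third lies in CDK6-AS1, antisense to the cell cycle kinase CDK6, with bases 946 to 959 on the minus strand. The fourth lies 12329 bp from the TSS (transcription start site) of SEC61B, a subunit of the protein translocation channel, and matches bases 42 to 54.
MIR100HG, chr11:122214952-122215052: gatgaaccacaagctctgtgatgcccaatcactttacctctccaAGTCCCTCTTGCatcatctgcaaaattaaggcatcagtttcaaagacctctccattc
PTPRN2, chr7:157882141-157882241: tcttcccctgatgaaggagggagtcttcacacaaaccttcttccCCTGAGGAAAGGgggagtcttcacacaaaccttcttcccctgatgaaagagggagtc
CDK6-AS1, chr7:92489266-92489366: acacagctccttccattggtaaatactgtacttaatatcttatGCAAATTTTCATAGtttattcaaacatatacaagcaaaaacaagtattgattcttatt
SEC61B, chr9:101996875-101996975: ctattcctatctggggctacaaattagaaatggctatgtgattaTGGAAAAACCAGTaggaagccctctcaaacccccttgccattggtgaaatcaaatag

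The highest fold enrichment among members with neither Alu sequence nor a match of 11 or more bases, again outside exons, was in an intron of PAK5, a p21-activated kinase. It is shown as a member without either sequence, and it has no capitals.
PAK5, chr20:9770296-9770495: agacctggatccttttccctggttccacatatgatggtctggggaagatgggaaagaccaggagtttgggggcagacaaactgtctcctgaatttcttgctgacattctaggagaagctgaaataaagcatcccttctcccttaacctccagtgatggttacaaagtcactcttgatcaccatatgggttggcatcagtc

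Members were weaker and narrower than the peaks shared with replicate 2. Their median fold enrichment over lacZ was 6.18 (quartiles 4.98 and 7.55, highest 22.4) against 7.97 (5.98 and 11.3, highest 57.7) for shared peaks. The median width was 279 bp (234 to 362) against 419 bp (312 to 660), and the median number of reads at the summit, worked out from each peak's fold enrichment and p-value together, was 14 (11 to 17) against 21 (16 to 30). The distributions overlapped over most of their range, and 25% of the members lay above 7.55, close to the shared median. The lacZ level at the summit was also lower, with a median of 1.00 read against 1.49, and it stood at its floor of 0.846 reads in 27.4% of members and 16% of shared peaks.

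**Figure D1:**
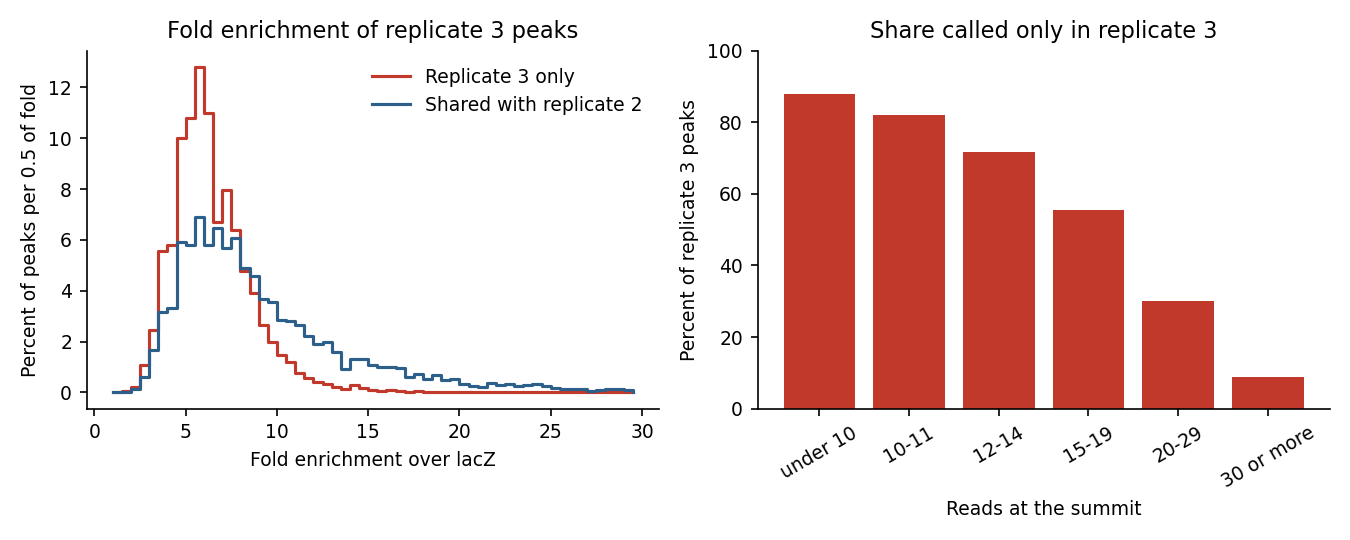
Left, the distribution of fold enrichment over lacZ (the axis ends at 30) as percent of peaks per 0.5 of fold for the 8900 members and the 8133 shared peaks. Right, bars give the percent of replicate 3 peaks at each number of summit reads that were called only in replicate 3, which fell from 87.8% under 10 reads to 8.93% at 30 or more.

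The share of replicate 3 peaks that were members fell at every step of summit reads, as the plot of peak strength shows. It was 87.8% under 10 reads, 71.8% at 12 to 14 reads, 55.5% at 15 to 19 reads, 30.1% at 20 to 29 reads and 8.93% at 30 or more, where 210 members remained. By width, it fell from 79.6% under 250 bp to 17.2% at 600 bp or more. Sequencing depth was not measured directly, since reads were not analysed, and its part in these numbers was not tested. Solved from the peak values, the number of reads used in peak calling was 1.83, 1.39 and 1.00 times that of the lacZ library in replicates 1, 2 and 3. The number of peaks ran the other way, with 723, 10765 and 17054 peaks. The weakest summits had 12 reads in replicate 1, 9 in replicate 2 and 7 in replicate 3. The smallest peak was 109 bp wide in replicate 1 and 217 bp in replicate 2. In replicate 2 the corresponding set was smaller: 2086 of 10765 peaks (19.4%, 18.6 to 20.1) overlapped none of the others.

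Membership turned on single bases at its edge. The member nearest to a replicate 2 peak, at chr1:116115517-116115747, was 1 bp away, with a fold enrichment of 5.52 and 11 reads. Another, at chr6:87427530-87427829, was also 1 bp away, with 9.10 and 18 reads. Just outside the rule, the peak at chr1:15289904-15290232 overlapped a replicate 2 peak by 1 bp, with a fold enrichment of 2.49 and 19 reads.

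Members fell into a set beside replicate 2 peaks and a set far from them. The nearest replicate 2 peak was within 1 kb (1000 bp) for 2492 members (28.0%) and within 3 kb for 3695 (41.5%). It lay between 3 and 10 kb away for 273 (3.07%) and beyond 10 kb for 4932 (55.4%). Of windows spaced evenly along the genome, 0.847% lay within 1000 bp and 1.76% within 3 kb of a replicate 2 peak. Of the 3695 near members, 3246 (87.8%) were also within 3 kb of a shared replicate 3 peak. Most replicate 2 peaks were shared in any case, 8678 of 10765, so this is no trait of the members. The 2949 replicate 2 peaks beside near members had a median fold enrichment of 6.09, and all replicate 2 peaks had one of 6.07.

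**Figure D2:**
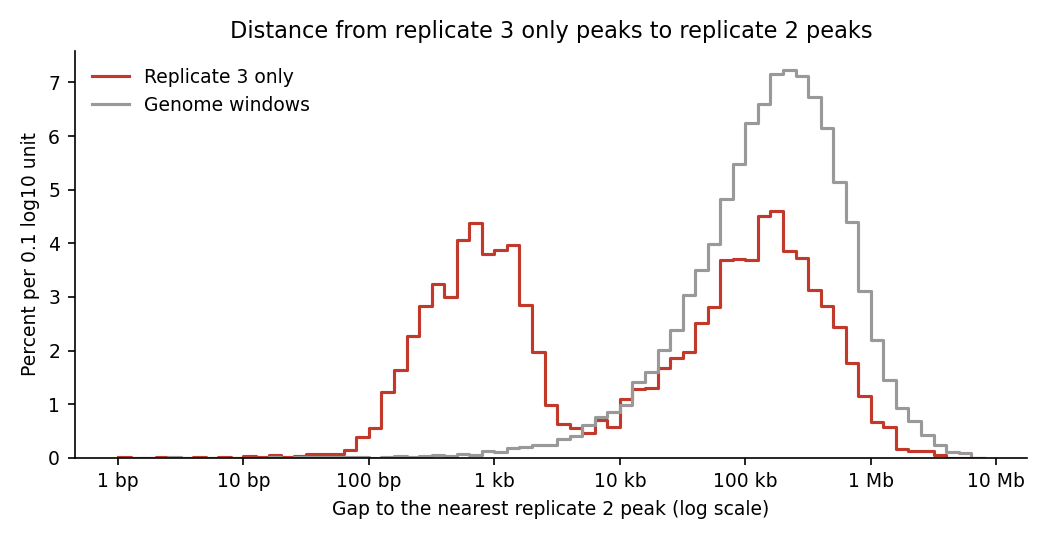
Percent of the 8900 members, and of 28352 genome windows, at each gap to the nearest replicate 2 peak, in steps of 0.1 on a log10 axis. Members form a hump below 3 kb, with 41.5% of them, and another around 100 kb, where the genome windows also lie.

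Near and far members were alike in strength. The median fold enrichment was 5.98 within 3 kb and 6.30 beyond 10 kb, with medians of 14 and 13 reads and widths of 293 and 272 bp. In sequence, 27% (25.6 to 28.5) of near and 35.1% (33.8 to 36.4) of far members held sequence of the Alu in its genomic form, with its intron. A transcript match of 12 bases or more stood in 10.4% (9.48 to 11.5) of near and 16.8% (15.8 to 17.9) of far members. Since the split was by distance to peaks that the rule had used, no test was made.

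Only 155 members were farther than 1 Mb (1000000 bp) from every peak of the other 2 lists. The 5 of highest fold enrichment among them were at 13.5, 13.1, 12.9, 12.5 and 11.9. The second lay in an intron of NIN, which encodes the centrosomal protein ninein, at chr14:51231152-51231450, with 32 reads and a match to transcript bases 945 to 958. The third was 110749 bp from the TSS of TASL, an adaptor of endosomal Toll-like receptor signalling on chromosome X. The fourth lay in an exon of DSEL, an enzyme of dermatan sulfate synthesis. The others lay outside genes, nearest to a pseudogene on chromosome 19 and to LINC02990, a noncoding RNA on chromosome 8.

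The MIR205HG gene itself held members and no other peak. Of 3 members at this locus, 2 had their summit inside the gene (chr1:209602162-209606193), and replicates 1 and 2 had 0 peaks within 20 kb of it. The nearest replicate 2 peak was 785088 bp away. The member at chr1:209603334-209604811 had a fold enrichment of 9.21 and 31 reads over a lacZ level of 2.46, and overlapped exon 3. The member at chr1:209605147-209605698 had 5.94, 19 reads and a lacZ level of 2.35, and overlapped exons 4 and 5. The third, at chr1:209606392-209606620 downstream of the gene, had 4.36, with 34 reads over a lacZ level of 7. The lacZ level was thus above the members' median of 1.00 at all 3, and whether RNA or DNA of this locus was retrieved was not tested.

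The 10 members of highest fold enrichment ran from 22.4 to 17.8, with 32 to 41 reads at the summit. The first, at 22.4 and 41 reads, lay in PXDNL, a peroxidasin homologue on chromosome 8, within 48 bp of the TSS of the pseudogene BTF3P1. The next were in PAK5 at 20.4 and in ASTN1, a neuronal adhesion protein, at 20. C5orf64, a noncoding RNA gene, and ABHD5, a co-activator of triglyceride hydrolysis, each had one at 18.3. The remaining 5 were all at 17.8. They lay in LINC01151, in MIR100HG, in RERG, a RAS-like growth inhibitor, in ETV5, an ETS transcription factor, and outside genes downstream of LINC02920. None of the 10 held Alu sequence, and 5 of them, in PXDNL, ASTN1, ABHD5, MIR100HG and RERG, matched 12 to 14 transcript bases, within bases 18 to 30 or 441 to 456. The gap to replicate 2 was under 3 kb in 6 of the 10, from 338 bp in PAK5 to 2770 bp in LINC01151.

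Exact transcript matches stood in similar shares of members and shared peaks. At least 12 bases outside the Alu were matched in 14.1% of members (13.3 to 14.8), 13.3% of shared peaks (12.5 to 14), 3.93% of replicate 2 only peaks (3.14 to 4.86) and 4.37% of genome windows (4.14 to 4.62). At 13 bases the shares were 7.04%, 8.19%, 1.25% and 1.21%, so longer matches were rarer in members than in shared peaks. At 15 bases, 1.06% of members (0.854 to 1.29) and 2.45% of shared peaks (2.12 to 2.81) had one, against 0.0988% of genome windows.

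**Figure D3:**
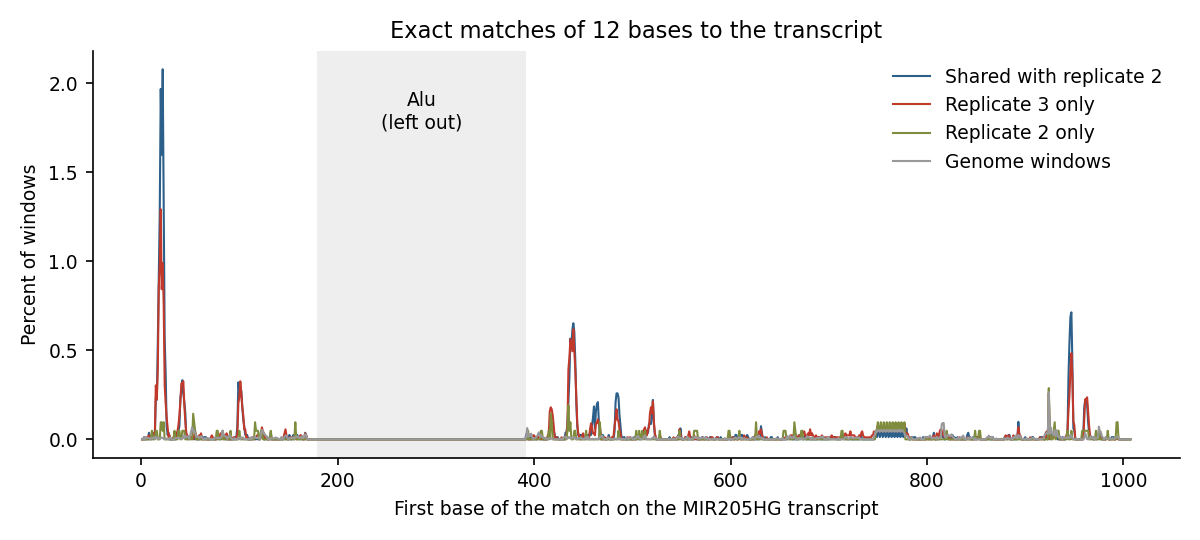
Percent of 300 bp windows that hold each 12-base word of the MIR205HG transcript, by the word's first base, for members, shared peaks, replicate 2 only peaks and genome windows. The highest points for members and shared peaks are between bases 15 and 35, lower ones stand at further places along the transcript, and the shaded Alu was left out.

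The stretch at bases 15 to 35 led, with a match in 417 members (4.69%, 4.26 to 5.15), 5.25% of shared peaks (4.78 to 5.76), 0.336% of replicate 2 only peaks (0.135 to 0.690) and 0.0529% of genome windows. The rule that chose the stretches asked for an excess of members over genome windows, so that contrast was fixed by the choice. Bases 435 to 454 followed, in 202 members (2.27%) and 1.64% of shared peaks. The other 4 stretches stood in 22 to 60 members and in 18 to 67 shared peaks each. At least 1 of the 6 was held by 785 members (8.82%), while 466 (5.24%) had a match of 12 bases elsewhere only. These combined shares were worked out for members alone. Of the members with bases 15 to 35, 76.5% lay beyond 10 kb of a replicate 2 peak, where 55.4% of all members lay. The matched strand was evenly split, with 639 members matching in the sense of the transcript and 612 in the opposite sense on the plus strand of the genome. Matches lay a median of 60 bp from the summit in members, 62.5 bp in shared peaks and 76.0 bp from the middle of genome windows. The probe sequences were not used here, so whether these stretches are probe sites was not tested.

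Matches became more frequent with peak strength. Their share rose from 5.48% of members under 10 reads to 22.4% at 30 reads or more. Among the 300 members of highest fold enrichment, 115 (38.3%) had one and 7 (2.33%) held Alu sequence. In shared peaks the share was 8.33% (3.67 to 15.8) of the 96 under 10 reads, then rose from 4.59% at 10 to 11 reads to 25.1% at 30 or more. From 10 to 29 reads, members had matches more often than shared peaks of the same read number, for example 14.4% (13.1 to 15.7) against 5.76% (4.45 to 7.33) at 12 to 14 reads. At like width this held only for narrow peaks. The shares were 13.7% of members and 5.30% of shared peaks under 250 bp, 13.1% and 13.4% at 300 to 399 bp, and 13.8% and 18.5% at 600 bp or more. Matches and the Alu in its genomic form seldom stood together: 19.0% of members without this Alu sequence had a match, and 3.41% of those with it. Both stood in 1.08% of members, 1.86% of shared peaks and 0.272% of genome windows, so this was not particular to members.

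Alu sequence was less frequent in members than in peaks shared with replicate 2. At least 100 bp of the window aligned to the MIR205HG Alu in 1379 members (15.5%, 14.7 to 16.3) and in 2129 shared peaks (26.2%, 25.2 to 27.1). The difference was -10.7 percentage points (95% interval -11.9 to -9.47, chi-square test of homogeneity, two-sided, adjusted p = 1.48e-65 over 8 features). The peaks came from 1 library, so this interval and the test cover counting error only, as do all intervals here. Against replicate 1 alone, without replicate 2, the difference turned to 5.59 (chi-square adjusted p = 0.00334). For alignments of at least 150 bp it was -0.0390 (chi-square adjusted p = 0.419). That setting cannot show whether the sets differ. The 212 bases searched with are the spliced form of 304 genomic bases, so copies with the intron part seldom align over such a length. Both sets stood above the genome windows at 5.59% (5.32 to 5.86), and the replicate 2 only peaks were higher still, at 36.8% (34.7 to 38.9). With the genomic form of the Alu, the order was the same: 31.7% of members, 56.7% of shared peaks, 76.7% of replicate 2 only peaks and 12.8% of genome windows.

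The gap held at equal strength up to 29 reads. At 12 to 14 reads, 13.7% (12.4 to 15) of members and 26.8% (24.1 to 29.5) of shared peaks held Alu sequence. At 20 to 29 reads the shares were 20.2% (17.8 to 22.7) and 27.3% (25.5 to 29.0), and at 30 or more they were 20% (14.8 to 26.1) and 21.9% (20.2 to 23.7), with overlapping intervals. Weighted over 29 bins of width and reads, the difference was -12.5 percentage points (adjusted p = 4.71e-63, Mantel-Haenszel chi-square test). The widest members, of 600 bp or more, held Alu sequence in 5.75% of 487 windows. Repeated sequence in general moved with the Alu: over 50% of the 16-base words of the window occurred at least 100 times in the genome in 26.9% of members, 47.4% of shared peaks, 69.8% of replicate 2 only peaks and 12.7% of genome windows. How uniquely reads of each library could be placed in such windows was not tested.

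**Figure D4:**
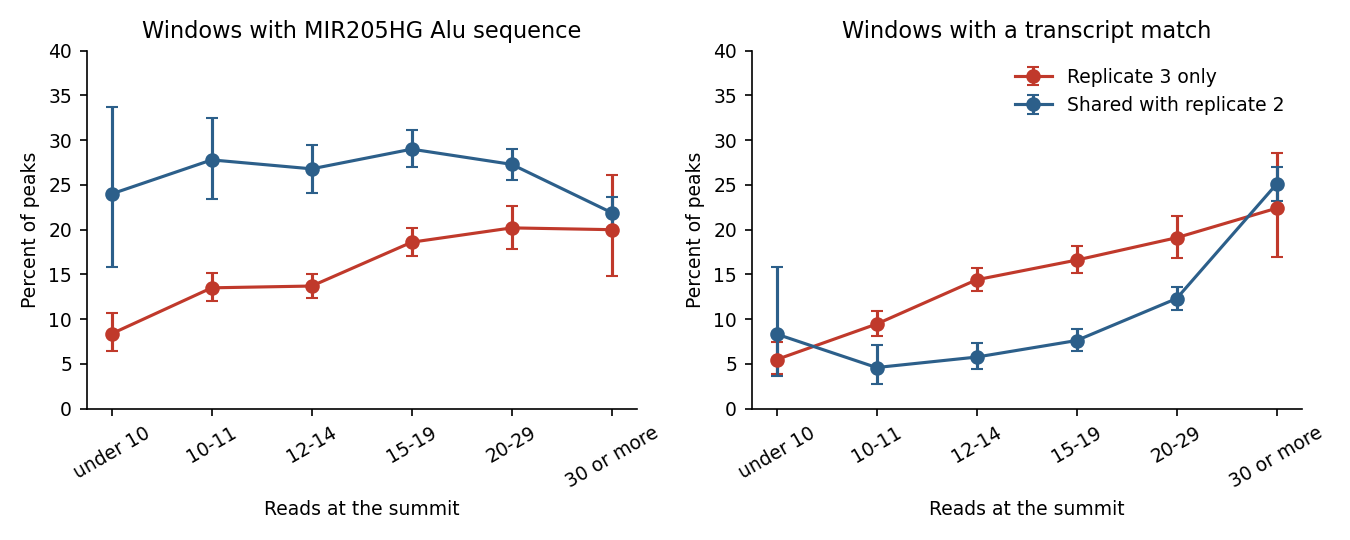
Percent of members and of shared peaks whose summit window holds MIR205HG Alu sequence (left) or a transcript match of 12 bases or more (right), by reads at the summit, with 95% exact intervals as bars. Members lie below shared peaks for the Alu up to 29 reads and above them for matches from 10 to 29 reads.

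Many members held neither sequence. Alu sequence in its genomic form and a match of 12 bases were both missing in 55.4% of members (54.3 to 56.4), in 31.8% of shared peaks (30.8 to 32.9) and in 83.0% of genome windows. All members together, with or without these sequences, were richer in G and C than the genome windows. Their median GC content was 49.0% (quartiles 44 and 53.7) against 40%. Shared peaks had a median of 48.3%. The widest members reached 53.3%. Windows with 15 or more CpG made up 2.54% of members, 2.36% of shared peaks and 1.60% of genome windows.

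Counted by overlap of the whole interval, members were placed relative to genes much as the shared peaks were, although shared peaks were wider. A proximal region, the 1500 bp before a TSS and the 500 bp after it, was overlapped by 1074 members (12.1%, 11.4 to 12.8) and by 12% of shared peaks. The difference was 0.0669 percentage points (-0.913 to 1.04, adjusted p = 0.893 by the chi-square test). Genome windows of 300 bp were proximal in 8.26%. Within 5 kb of a TSS the share was higher in members by 2.01 percentage points (adjusted p = 0.0125 by the chi-square test). Among peaks of 250 to 400 bp the proximal share was higher in members by 3.33 (chi-square adjusted p = 2.57e-05). Weighted over width and reads it was higher by 1.52 (adjusted p = 0.0156, Mantel-Haenszel chi-square test). From 1000 bp before a TSS to 100 bp after it the difference was -0.488 (chi-square adjusted p = 0.397). Whether a difference was found thus depended on the setting, and like widths gave members the higher share.

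Exons were overlapped by 592 members outside proximal regions (6.65%, 6.14 to 7.19) and by 5.59% of shared peaks (5.10 to 6.12), a difference of 1.06 percentage points (0.336 to 1.78, adjusted p = 0.0110 by the chi-square test). Where gaps of up to 500 bp counted as shared it was 0.636 (chi-square adjusted p = 0.173), and without replicate 2 it was -1.83 (chi-square adjusted p = 0.0772). Among peaks of 250 to 400 bp it was 2.60 (chi-square adjusted p = 5.81e-06). Weighted over width and reads it was 2.44 (adjusted p = 5.84e-08, Mantel-Haenszel chi-square test). The genome windows were at 5.42% and the replicate 2 only peaks at 1.68% (1.17 to 2.33). Introns held 50% of members and 49.8% of shared peaks (difference 0.144, -1.36 to 1.65, chi-square adjusted p = 0.893). Distal regions held 27.5% and 29.0% (difference -1.50, -2.85 to -0.146, chi-square adjusted p = 0.0597), and regions downstream of genes 3.8% and 3.57% (adjusted p = 0.607). Protein-coding gene bodies were overlapped by 52.1% of members and 51.5% of shared peaks (difference 0.572, -0.930 to 2.07, chi-square adjusted p = 0.607). The p-values that missed 0.05 do not show that the shares were equal.

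**Figure D5:**
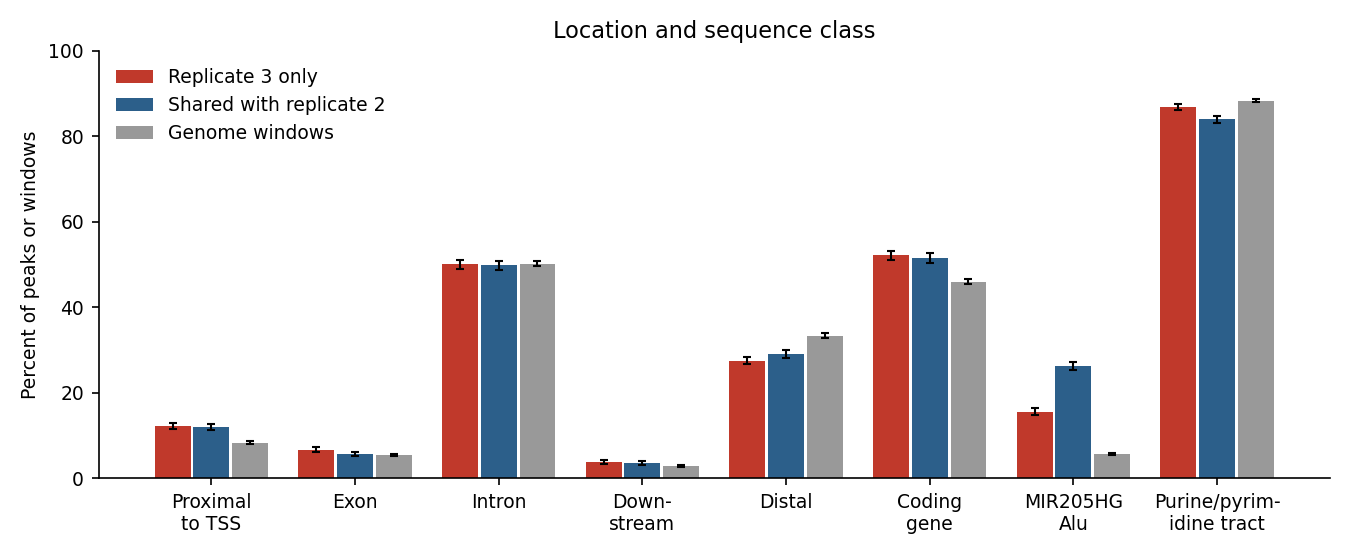
Percent of members, shared peaks and genome windows in each location class and with each sequence class, with 95% exact intervals as bars. The bars of members and shared peaks are close in every location class and differ most for the MIR205HG Alu, at 15.5% and 26.2%.

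Purine or pyrimidine tracts are the DNA side of a triple helix. A tract of 15 nt with at most 2 interruptions stood in 86.8% of member windows and 84.0% of shared windows, a difference of 2.80 percentage points (1.73 to 3.86, adjusted p = 9.44e-07 by the chi-square test), but this rested on the setting. Genome windows had one in 88.3%, above both. The difference was -0.820 (chi-square adjusted p = 0.390) when no interruption was allowed, 0.332 (adjusted p = 0.413) in windows of 500 bp and -1.04 (adjusted p = 0.455) with replicate 1 alone as the other list. The direction turned when the whole peak was searched, with a difference of -5.16 percentage points (chi-square adjusted p = 1.07e-23), shared peaks being wider.

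The 5 members of highest fold enrichment proximal to a protein-coding TSS were near ABHD5 at 18.3, NPL and SNTN at 15.6, SERPINB11 at 14.9 and MRPS15 at 14. NPL breaks down sialic acid, SNTN encodes a protein of cilia tips, SERPINB11 belongs to the serpin family and MRPS15 is a subunit of the mitochondrial ribosome. The members near SNTN and SERPINB11 were 209446 and 212083 bp from the nearest replicate 2 peak, while those near ABHD5, MRPS15 and NPL were 369, 240 and 1395 bp away. SERPINB11 matched 14 transcript bases, 99 to 112.

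Of 20090 protein-coding genes, 3049 (15.2%) had a member in the gene body or the 1500 bp upstream, and 1577 of these had no shared peak. Among all 20090, only 2390 (11.9%) had a shared peak, so lacking one was not particular to genes with members. The share with a member grew with gene length, from 2.92% of genes under 10 kb to 60.1% of genes of 300 kb or more. The share with a shared peak grew likewise, from 2.06% to 53.8%. The 10 genes with the most members were therefore mostly long. CDH4, the R-cadherin gene, had 19 members in 688 kb beside 14 shared peaks, with fold enrichments from 3.65 to 14.5. PTPRN2 had 13 in 1049 kb, and GSE1, which encodes a coiled-coil protein, 13 in 507 kb. KAZN, the kazrin gene of desmosomes and the cornified envelope, and ASTN2, a neuronal adhesion protein, had 11 each. CAMTA1, a calmodulin-binding transcription activator, GLI2, a transcription factor of Hedgehog signalling, MAD1L1, a spindle checkpoint protein, SAMD12 and DCPS, the scavenger decapping enzyme, had 8 each. DCPS was the shortest of the 10, with 8 members in 45.9 kb and 3 shared peaks. MAD1L1 was the only gene of the 10 with 0 shared peaks, its members running from 4.27 to 11.2.

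Genes with at least 3 members and no shared peak numbered 111. They were picked on the peak calls and no background share was worked out, so the count is no result about these genes. After MAD1L1, the next, chosen after the values were seen, was ADCYAP1R1, the receptor of the neuropeptide PACAP, with 7 members in 59.2 kb and fold enrichments from 4.65 to 9.71. SLC9A9, a sodium-proton exchanger of endosomes, had 6 in 583 kb.

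Members lay in runs in places. Joined where gaps were at most 10 kb, they formed 6808 runs, of which 5228 held a single member and 369 held 3 or more. The longest runs were on chromosome 8 near the centromere, 478645 and 299192 bp from the nearest gap in the assembly, with 17 members at chr8:47317140-47360291 and 16 at chr8:47137909-47173421. The first of these also held 7 shared peaks and 14 replicate 2 peaks. Of its members, 0 held Alu sequence, and their fold enrichments ran from 3.98 to 9.96. A run on chromosome 20, chr20:60454511-60470708, held 7 members, from 4.65 to 14.5, in the 3' part of CDH4. By chromosome, the density of members ran from 0.814 per Mb on X and 1.87 on chromosome 4 to 5.84 on chromosome 19 and 7.43 on chromosome 20, with 3.14 over all 23. Shared peaks followed the same extremes, with 0.622 per Mb on X and 6.82 on chromosome 20. Accordingly the share of replicate 3 peaks that were members stayed between 48.7% (45.0 to 52.4) on chromosome 4 and 57.7% (54.1 to 61.2) on chromosome 3.

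Lists of genes of the tissue are read beside the 15.2% of all protein-coding genes. Of 15 prostate basal genes, 2 (13.3%) had one: MIR205HG, which is noncoding and so no part of that background, and CDH3, the P-cadherin gene, at 5.64. Of 14 luminal genes found in the annotation, 1 (7.14%) did: TMPRSS2, an androgen-regulated serine protease, had 2 members, at 6.48 and 8.09, and no shared peak. With so few genes, both shares are near that background and no result about the lists.

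Of 25 interferon response genes, 6 (24.0%) had members, against 15.2% of all protein-coding genes. MX1 and MX2, antiviral GTPases, had 2 and 1, the highest at 7.25 in MX1. OAS1 and OAS3, which make the messenger that activates RNase L, had 1 each, at 6.48 and 5.12, beside 1 and 2 shared peaks. IRF7, a transcription factor of the interferon response, had 1 at 7.01, and IFIH1, a sensor of double-stranded RNA, had 2 at 6.23 and 6.18. Shared peaks stood at 2 of the 25 genes (8%), against 11.9% of all protein-coding genes. With so few genes, neither share is a result about the list.

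Of 15 genes of epithelial growth and adhesion, 11 (73.3%) had members and 9 (60%) had shared peaks. Their median length was 131 kb, against 27.3 kb for all protein-coding genes. Of genes of 100 to 300 kb, 33.4% had a member and 27.1% a shared peak. At 300 kb or more, the length of RUNX1, PRKCA, CTNNA1 and IGF1R, the shares were 60.1% and 53.8%. The list was chosen with earlier results of these data known, so its shares are no result about the list. RUNX1, a transcription factor, had 7 members from 4.98 to 9.53 and 7 shared peaks. SMAD3, which carries TGF-beta signals to the nucleus, had 4, the highest at 12.9. The receptor tyrosine kinase gene MET had 2 and 0 shared peaks, the higher at 12.4, while EGFR had 3 members, from 3.98 to 6.48, and 5 shared peaks. GRHL2, a regulator of epithelial junction genes, had 1 at 6.48. The remaining ones were FGFR2, IGF1R, NOTCH2, CDH1, CTNNA1 and PRKCA, with 1 or 2 members each and fold enrichments from 2.70 to 7.97.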

How the data were processed

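RWPE-1 cells were assayed by ChIRP-seq in 3 MIR205HG probe libraries and 1 lacZ probe library, and the narrow peak lists of the 3 MIR205HG libraries were used. Per the methods, single reads of 100 bp were aligned with Bowtie2, while the submitters' processing notes name Bowtie 1.0.1, MACS2 2.1.0 and hg19. For every peak the authors deposited p-values and q-values as −log10, the fold enrichment as a ratio over the local lacZ background, and the deposited score was only checked. The methods state a p-value limit of 1e-05, and 375 members were above it. Library numbers inside the peak names differ from the list names, which were followed here. Reads were not analysed, so depth is known only through the peak values: summit reads, the lacZ level and each library's depth relative to lacZ were solved from fold enrichment and p-value (100% of peaks within 0.01 of −log10 p).

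Peaks were split by overlap of at least 1 bp. Location came from GENCODE 44 on GRCh37, with classes taken in the order proximal, exon, intron, downstream (3000 bp) and distal. Windows of 300 bp around summits were searched with blastn 2.17.0 (at least 100 bp, E-value up to 1e-05) and for exact words. Shares have Clopper-Pearson 95% intervals. Differences have Newcombe intervals and chi-square tests adjusted by Benjamini-Hochberg over 8 features, the threshold being 0.05. Genome windows were 28352 windows of 300 bp, 1 per 100000 bp. The genes named were the 10 members of highest fold enrichment, the 5 highest proximal to a protein-coding TSS, the 5 highest over 1000000 bp from other lists, the 10 protein-coding genes with the most members, members of the lists, and MIR205HG. Members, lists and tests were chosen with earlier results of these data known. The steps were tested on simulated data. Python 3.11.15, scipy 1.17.1, statsmodels 0.14.6 and bedtools 2.31.1 were used. The Alu sequences are not reported here.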

Additional observations from a re-analysis of the deposited data

Results flagged for a closer look

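Replicate 3 also had 57 peaks outside chromosomes 1 to 22 and X, which none of the comparisons used. Of these, 39 overlapped no peak of replicates 1 and 2, among them 8 of 10 on chromosome Y and 4 of 4 on the mitochondrial genome. They stood out as signal outside the regions analysed, and nothing further was tested on them.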

How the results depend on the processing

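Leaving out a list changes the rule itself. Over the settings without replicate 1 or 2, the number of members ran from 8921 to 16383 and the share near a peak of the remaining list from 28.0% to 2.48%. The differences, in percentage points, ran from -10.7 to 5.59 for the Alu, from 2.79 to -1.04 for tracts, from 0.0385 to 2.43 for proximal regions, from 1.05 to -1.83 for exons, from 0.506 to 6.57 for gene bodies and from 0.667 to 5.67 for median GC. Transcript matches ran from 14.1% to 12.7%. In each range the second value is without replicate 2, so the lower Alu share holds against replicate 2 peaks and turns against the few of replicate 1. The Alu difference was -0.0390 (chi-square adjusted p = 0.419) for alignments of at least 150 bp. Few windows reach that length, since the Alu searched with lacks its intron part, so this setting cannot show whether the sets differ. For tracts it was -5.16 over whole peaks, -0.820 (chi-square adjusted p = 0.390) with no interruption and 0.332 (adjusted p = 0.413) in windows of 500 bp. The exon difference, whose alternatives were added after seeing the data, was 0.636 with gaps of up to 500 bp shared and 1.12 to 2.60 under the other 7 settings. The proximal difference passed the threshold at 1.59 when 50% of the peak had to be covered, 3.33 for widths of 250 to 400 bp, 1.52 weighted over bins and 2.01 within 5 kb. The median GC difference, 0.667 in the main setting, was 0.333 with gaps of up to 500 bp shared or fold enrichment of at least 5, 1.00 with 50% covered, widths of 250 to 400 bp or windows of 500 bp, and 1.36 over whole peaks. The share within 1 kb was 14.5% with gaps shared, 36.3% with 50% covered and 19.6% between summits. Transcript matches, added after seeing the data, stood in 27.7% at 11 bases, 7.04% at 13, 16.6% at a fold enrichment of at least 5 and 17.7% in windows of 500 bp. The members numbered 8525 at a p-value of at most 1e-05 and 8723 at a −log10 q of at least 2. None of the differences above changed direction or crossed the threshold under either setting. Leaving out replicate 3 was not possible, and the share of masked repeat bases was not run, since the genome used was not masked. No paired analysis was possible because there is no second group with peaks. Members rest on few reads, a median of 14 at the summit.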
